A study of Mus musculus with 12 samples.

Results

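The transcripts described here encode the nuclear-encoded subunits of respiratory complex III (ubiquinol-cytochrome c reductase) and its soluble electron acceptor, cytochrome c. The 10 genes were taken by symbol, *Uqcrc1*, *Uqcrc2*, *Cyc1*, *Uqcrfs1*, *Uqcrb*, *Uqcrq*, *Uqcrh*, *Uqcr10*, *Uqcr11* and *Cycs*, and all 10 were found among the 55367 gene symbols of the series. Isolated myofibers of the mouse extensor digitorum longus (EDL), a fast hindlimb muscle, were profiled by RNA-seq in 3 groups of 4 samples. Young fibers came from mice aged 3 to 4 months, and aged fibers from mice aged 26 to 28 months, in which fibers with a normal staining pattern of the Ca2+ dye Fluo-4 (Fluo-4 normal fibers) were separated under a fluorescence stereomicroscope from fibers with an aberrant pattern (Fluo-4 abnormal fibers). The labels name these 2 groups aged normal and aged abnormal. The labels name no treatment, the number of fibers and mice behind each sample is not given in the sources used here, and p-values therefore measure only the spread between these samples. Values are TPM, the level of a transcript scaled to its length and to the total of its sample, so that fewer fibers with a transcript and less of it per fiber cannot be told apart.

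Complex III takes electrons from ubiquinol, pumps protons across the inner mitochondrial membrane and passes the electrons to cytochrome c, which carries them to complex IV. Its redox centers sit in cytochrome b, encoded in the mitochondrial genome by *mt-Cytb*, in cytochrome c1 (*Cyc1*) and in the Rieske iron-sulfur protein (*Uqcrfs1*). The core proteins (*Uqcrc1* and *Uqcrc2*) and small accessory subunits complete the complex, so that its assembly needs products of both genomes. In skeletal muscle the complex is most abundant in oxidative fibers, and cytochrome c released from mitochondria also takes part in apoptosis.

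The genes lie on 8 chromosomes of GRCm39, with *Uqcrb* (chr13:67048655-67053443) and *Uqcrfs1* (chr13:30723448-30729345) on one chromosome and *Uqcrq* (chr11:53318749-53322047) and *Uqcr10* (chr11:4651968-4654653) on another. Near-identical copies matter for reading these values. A search of the genome for stretches of at least 100 bp, at least 95% identical to and covering at least 50% of a member's transcript or coding sequence, found 5 copies of *Cycs*, 3 of *Uqcrb*, 2 of *Uqcr11* and 1 of *Uqcrh*, and none of *Cyc1*, *Uqcrc1*, *Uqcrc2*, *Uqcrfs1*, *Uqcrq* or *Uqcr10*. The first 60 coding bases of *Cycs* (chr6:50539541-50543557) are shown beside its 3 closest annotated copies, *Gm10053* (chr19:24853117-24853431), *Gm10108* (chr5:13171419-13171733) and *Gm13772* (chr2:90634606-90634920), because they show how little sequence separates the rows of the files. Capitals mark bases at which any of the 3 copies differs from *Cycs*.
Cycs: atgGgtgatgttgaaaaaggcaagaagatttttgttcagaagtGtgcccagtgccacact
Gm10053: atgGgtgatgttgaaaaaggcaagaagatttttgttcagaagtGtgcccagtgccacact
Gm10108: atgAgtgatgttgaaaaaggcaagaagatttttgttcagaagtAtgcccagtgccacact
Gm13772: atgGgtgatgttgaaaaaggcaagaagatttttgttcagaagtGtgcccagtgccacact
Over the 315 coding bases, *Gm10053* has 0 differences from *Cycs*, *Gm10108* has G4A and G44A, and *Gm13772* has C115T and G116A outside the bases shown, with positions counted from 1 at the first base of the start codon and the base of *Cycs* given first.

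The small accessory subunits had the highest levels in young fibers, with *Uqcr10* at 2325 ± 196 TPM (SD, n = 4), *Uqcr11* at 1992 ± 124, *Uqcrb* at 1912 ± 164 and *Uqcrq* at 1672 ± 134. Each of these overlapped its neighbor in this order. The hinge protein gene *Uqcrh* followed at 983 ± 87.5 TPM, then *Uqcrc1* at 725 ± 11.8 and *Uqcrfs1* at 675 ± 55.4, and *Uqcrh* overlapped neither neighbor, whereas *Uqcrc1* and *Uqcrfs1* overlapped. *Cyc1* was at 530 ± 29.2 TPM, *Uqcrc2* at 284 ± 20.1 and *Cycs* at 259 ± 18.7, of which only the last pair overlapped. The core proteins thus differed in transcript level, with *Uqcrc1* above *Uqcrc2* in every sample. The 10 genes together took 1.14% ± 0.0776 of the TPM in young, 1.21% ± 0.0960 in Fluo-4 normal and 0.916% ± 0.0727 in Fluo-4 abnormal fibers (SD, n = 4 each).

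All 10 members were lower in Fluo-4 abnormal than in Fluo-4 normal fibers, with changes of -33.8% to -18.5% on the log2(TPM + 1) scale, and 9 of them passed the test (limma, adjusted p under 0.05 over 14426 genes). The exception was *Uqcrb*. Over all genes tested, 1.99% were lower by the same criterion, and in 2.54% every Fluo-4 abnormal sample lay below every Fluo-4 normal sample, which held for all 10 members. The median log2 change of the members was -0.43, and that of all tested genes was 0.10. This fit did not pair samples. With same-numbered aged samples blocked all 10 members passed, and 407 of all genes passed as lower.

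**Figure D1:**
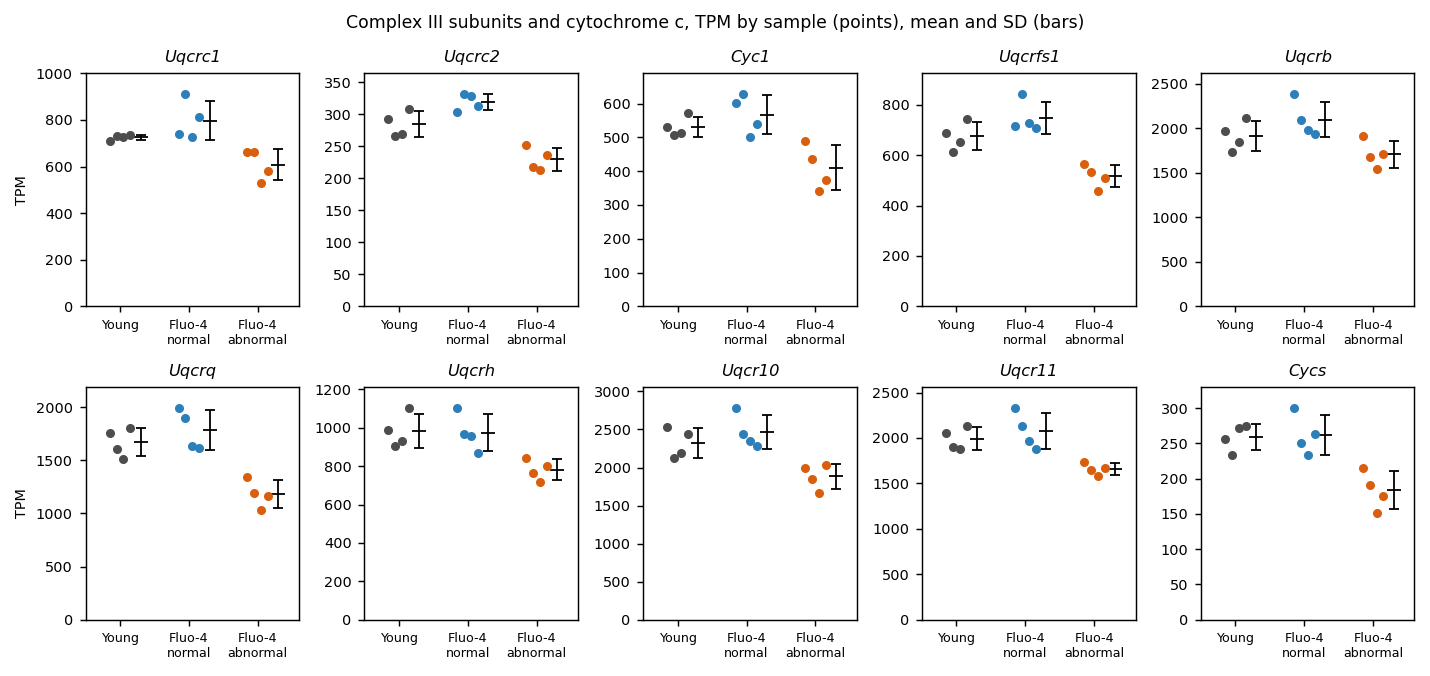
TPM of the 10 members (vertical axes, each from 0) in the 4 samples of each group (points), with the mean and SD (black bars). In every panel the 4 Fluo-4 abnormal samples lie below the 4 Fluo-4 normal samples.

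Of the catalytic subunits, *Cyc1*, the heme protein that hands electrons to cytochrome c, was at 602, 627, 501 and 539 TPM in Fluo-4 normal samples 1 to 4 and at 490, 435, 340 and 373 in Fluo-4 abnormal samples 1 to 4. The groups did not overlap, although Fluo-4 normal sample 3 lay close to Fluo-4 abnormal sample 1. *Cyc1* fell by 0.48 on the log2 scale (SE 0.107, limma adjusted p = 0.0152), and the call was lost without Fluo-4 normal sample 2 or Fluo-4 abnormal sample 4 (highest adjusted p = 0.0532). *Uqcrfs1*, the Rieske protein, was at 717, 841, 726 and 707 TPM in Fluo-4 normal samples and at 564, 531, 459 and 507 in Fluo-4 abnormal samples. Its values were well separated, and it fell by 0.54 (SE 0.0838, limma adjusted p = 0.00277).

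The core proteins, which face the matrix and are related to the mitochondrial processing peptidase, were both lower. *Uqcrc1* was at 740, 910, 727 and 813 TPM in Fluo-4 normal samples and at 662, 662, 531 and 579 in Fluo-4 abnormal samples, a fall of 0.39 (SE 0.0866, limma adjusted p = 0.0147). *Uqcrc2* was at 304, 331, 329 and 313 TPM in Fluo-4 normal samples and at 252, 217, 213 and 237 in Fluo-4 abnormal samples, a fall of 0.47 (SE 0.0706, limma adjusted p = 0.00222). Neither pair of groups overlapped, and *Uqcrc2* had the smallest adjusted p of the members.

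Among the accessory subunits, *Uqcrq*, which contacts cytochrome b, had the largest fall of the 10. It was at 1996, 1898, 1636 and 1616 TPM in Fluo-4 normal samples and at 1347, 1191, 1033 and 1164 in Fluo-4 abnormal samples, a fall of 0.59 (SE 0.0979, limma adjusted p = 0.0035). Within the summed TPM of the 9 nuclear-encoded subunits, *Uqcrq* took 14.6% to 15.5% in Fluo-4 normal and 12.8% to 13.8% in Fluo-4 abnormal samples, so its share was lower in all Fluo-4 abnormal samples. *Uqcrb*, a small subunit close to the ubiquinone site, went the other way within this sum, from 17.1% to 18.4% in Fluo-4 normal to 18.7% to 19.5% in Fluo-4 abnormal samples. These shares were described after their values were seen and were not tested. The level of *Uqcrb* was 2380, 2094, 1981 and 1934 TPM in Fluo-4 normal samples and 1908, 1678, 1541 and 1709 in Fluo-4 abnormal samples, a log2 difference of -0.29 (SE 0.0914, limma adjusted p = 0.0608). When replicates were blocked by number, this difference passed the test (limma adjusted p = 0.0136), as it did without Fluo-4 abnormal sample 1 (limma adjusted p = 0.0347).

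*Uqcr10* (log2 change -0.38, SE 0.0914, limma adjusted p = 0.0198), *Uqcr11* (-0.32, SE 0.0784, adjusted p = 0.0218) and *Uqcrh* (-0.32, SE 0.0868, adjusted p = 0.0371) fell by less. The means of *Uqcr10* were 2463 ± 225 TPM in Fluo-4 normal and 1887 ± 165 in Fluo-4 abnormal fibers, those of *Uqcr11* were 2078 ± 198 and 1656 ± 65.1, and those of *Uqcrh* were 975 ± 97.2 and 781 ± 54.7 (SD, n = 4 each). These calls were the least stable. That of *Uqcrh* was lost in 8 of the 12 fits that each left out 1 sample, namely without Young sample 1 or 3, Fluo-4 normal sample 1, 2 or 3, or Fluo-4 abnormal sample 2, 3 or 4 (highest adjusted p = 0.1). That of *Uqcr10* was lost without Fluo-4 normal sample 1 or Fluo-4 abnormal sample 2 or 3, and that of *Uqcr11* without Fluo-4 normal sample 2 or Fluo-4 abnormal sample 2 or 3. *Uqcrb* and *Uqcr10* have the shortest annotated transcripts of the members, at 558 and 448 bases. When a trend on GC content and transcript length was removed, *Uqcr10* changed by -0.05 and *Uqcrb* by 0.06, and neither passed the test. *Uqcrh* then changed by -0.19 (limma adjusted p = 0.062), its call was lost as well, and 7 of the 10 members passed. Of all 14156 genes in that fit 286 passed as lower.

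*Cycs* was at 300, 251, 233 and 263 TPM in Fluo-4 normal samples and at 215, 191, 151 and 176 in Fluo-4 abnormal samples. The groups did not overlap, and *Cycs* fell by 0.52 (SE 0.106, limma adjusted p = 0.00991). Its intronless copy *Gm10053* carried more TPM than *Cycs* itself, at 686, 586, 515 and 528 in Fluo-4 normal samples and 488, 425, 322 and 408 in Fluo-4 abnormal samples, and it fell by 0.50 (SE 0.12, limma adjusted p = 0.021). Since their coding sequences are identical, the values cannot tell reads of one from reads of the other there, and the rows are uncertain taken singly. TPM also divides by length. The *Cycs* transcript has 3164 bases and its match in *Gm10053* 315, so the same coding reads can give more TPM on the shorter row. Neither the higher TPM of the copies nor their share of a sum therefore shows where the transcripts came from. The 4 copies with a row held 72.3% ± 1.60 of the summed TPM of *Cycs* and copies in Fluo-4 normal and 72.0% ± 1.72 in Fluo-4 abnormal fibers (SD, n = 4 each). Summed over these rows, *Cycs* was at 948 ± 140 TPM in Fluo-4 normal and 661 ± 131 in Fluo-4 abnormal fibers, a fall of 0.53 (SE 0.136, limma adjusted p = 0.0272). Copies of *Uqcrb* and *Uqcr11* held at most 2.21% of the summed TPM in any sample.

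**Figure D2:**
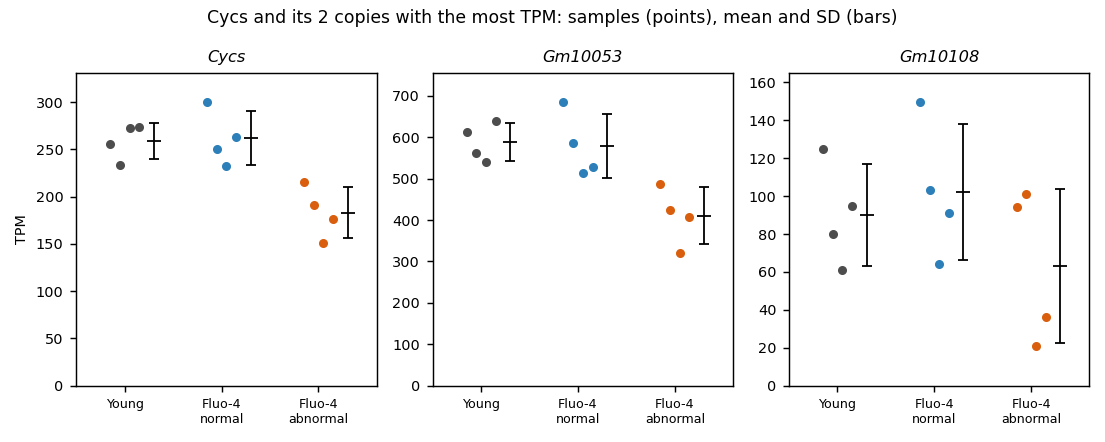
TPM (vertical axes, each from 0) of *Cycs* and of its copies *Gm10053* and *Gm10108* in the 4 samples of each group (points), with the mean and SD (black bars). *Gm10053* is above *Cycs* in every sample, and for these 2 genes the Fluo-4 abnormal samples lie below the Fluo-4 normal samples.

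*mt-Cytb*, the mitochondrially-encoded subunit, was at 10180, 10752, 8897 and 8569 TPM in Fluo-4 normal samples and at 6921, 6415, 5277 and 4961 in Fluo-4 abnormal samples. It fell by 0.71 (SE 0.117, limma adjusted p = 0.00352), and the groups did not overlap. Ratios between transcripts of a sample barely depend on how samples are scaled, so 3 log2 ratios were compared between the aged groups by two-sided exact permutation. The ratio of *mt-Cytb* to *Cyc1* was 4.08 ± 0.0661 in Fluo-4 normal and 3.84 ± 0.0949 in Fluo-4 abnormal fibers (SD, n = 4), a difference of -0.23 with an exact p of 0.0286, the smallest that 4 samples against 4 can give, and 0.0857 after adjustment over the 3 ratios. Within same-numbered aged samples the ratio was lower in the Fluo-4 abnormal sample of all 4 pairs, with differences of -0.26, -0.22, -0.19 and -0.26 in pairs 1 to 4. A paired exact test, added after seeing the data, gave p = 0.125, the smallest that 4 pairs allow, so that this design could not pass the threshold. In young fibers the ratio was 3.86 ± 0.0819. The ratio of *Cycs* to *Cyc1* differed by -0.04 (exact p = 0.629, n = 4) and that of *Uqcrc1* to *Uqcrc2* by 0.08 (exact p = 0.429, n = 4), both with an adjusted exact p of 0.629.

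The separation of fibers moved with the fast myosin content. *Myh4*, the myosin heavy chain of the fastest fibers, made up 93.7% to 99.2% of the TPM of *Myh1*, *Myh2*, *Myh4* and *Myh7* in Fluo-4 normal samples and 98.9% to 99.7% in Fluo-4 abnormal samples, against 96.9% to 98.6% in young samples. With this share in the model 3 of the 10 members passed the test between the aged groups, *Uqcrc2*, *Uqcrq* and *Cycs*, and the median log2 change was -0.37. Of all genes 108 then passed as lower. With the share and the replicate block together 0 passed (limma), with a median of -0.28, and 22 of all genes passed. In a fit of the 2 aged groups alone 3 passed, *Uqcrc2*, *Uqcrfs1* and *Uqcrq*, where 145 of all genes passed as lower. Fiber composition and state of the fibers cannot be told apart beyond these values.

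**Figure D3:**
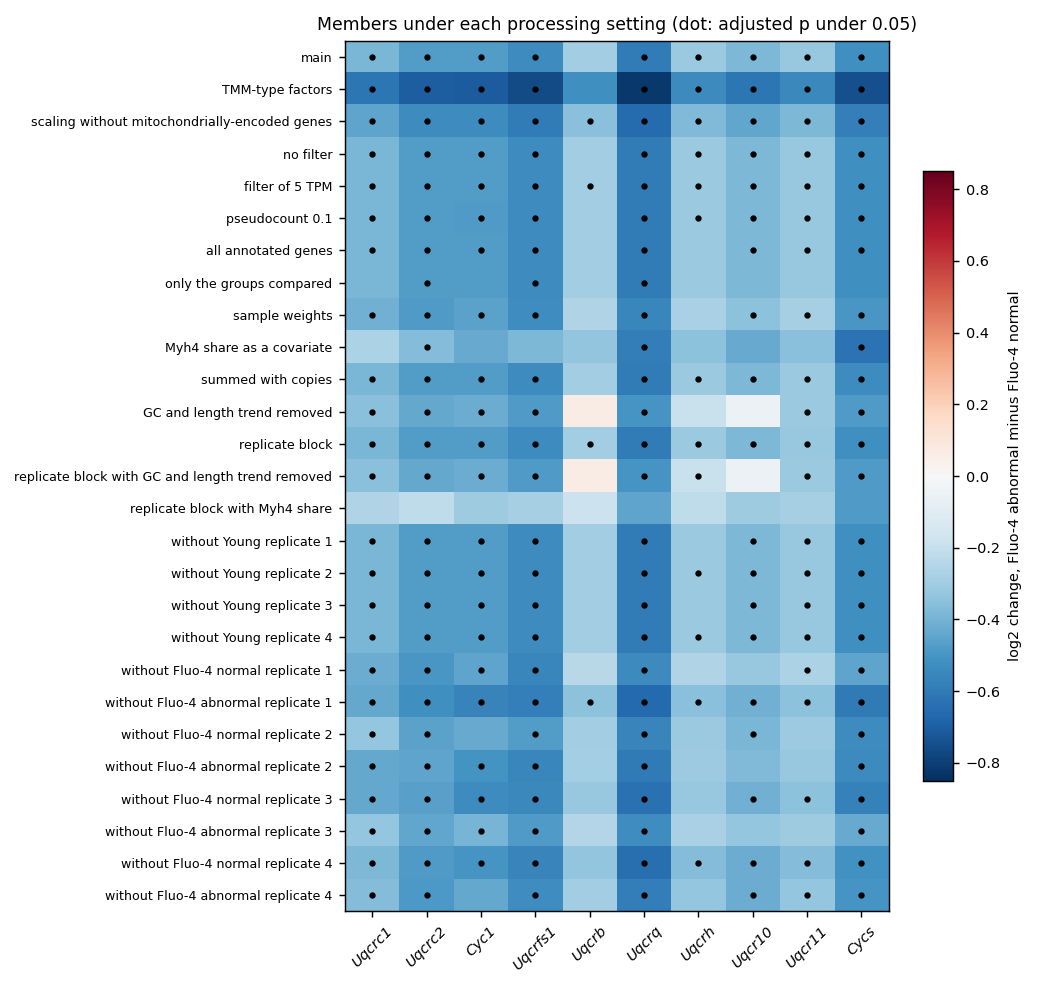
Log2 change of each member (columns) between Fluo-4 abnormal and Fluo-4 normal fibers under the main setting and 26 alternatives (rows), with blue for lower in Fluo-4 abnormal fibers and a dot where the adjusted p was under 0.05. All cells are blue except those of *Uqcrb* with the GC and length trend removed, at 0.06.

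Compared with young fibers, Fluo-4 abnormal fibers again had lower means for all 10 members, with changes of -29.6% to -10.6%, and 6 passed the test (limma), against 2.41% of all genes tested. *Cycs* fell by 0.51 (SE 0.106, adjusted p = 0.0109), *Uqcrq* by 0.50 (SE 0.0979, adjusted p = 0.00758), *Uqcrfs1* by 0.39 (adjusted p = 0.0129), *Cyc1* by 0.38 (adjusted p = 0.0417), *Uqcrh* by 0.33 (adjusted p = 0.0326) and *Uqcrc2* by 0.31 (adjusted p = 0.0182). In 9 members every Fluo-4 abnormal sample lay below every young sample, against 3.95% of all genes. The exception, *Uqcrb*, was at 1965, 1730, 1841 and 2112 TPM in young samples, overlapped with Fluo-4 abnormal sample 1, and had a log2 difference of -0.16 (limma adjusted p = 0.322). The replicate block in this comparison also tied young samples to same-numbered aged samples, although their mice differed in age. With it *Uqcrc1* (limma adjusted p = 0.0485), *Uqcr10* (adjusted p = 0.0236) and *Uqcr11* (adjusted p = 0.0344) passed too, and these values use that matching by number. Without a block the same genes also passed with a filter of 5 TPM (limma adjusted p = 0.0442, 0.0246 and 0.0231 in that order). With sample weights they passed as well (limma adjusted p = 0.0460, 0.0292 and 0.0279). Of all genes 379 and 441 then passed as lower. The count of 6 went to 3 without Young sample 1, 2 without Young sample 4 and 3 without Fluo-4 abnormal sample 2, and to 3 with the *Myh4* share in the model. The same Fluo-4 abnormal samples enter this comparison and the previous one.

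Between Fluo-4 normal and young fibers 0 of the 10 members passed the test (limma), where 1.15% of all genes did in either direction, and 1 had an unadjusted p under 0.05, *Uqcrc2* (log2 difference 0.17, SE 0.0706, adjusted p = 0.322). In this comparison 1865 of all 14426 genes had an unadjusted p under 0.05 (limma). The differences of the other members lay between -0.01 (*Uqcrh*) and 0.15 (*Uqcrfs1*). Of the 10 members 9 had a higher mean log2 value in Fluo-4 normal fibers and 1 a lower one. Their median difference was 0.09, against -0.02 for all tested genes. The groups overlapped for all 10 members, and 7.99% of all genes had no overlap in either direction. *mt-Cytb* was at 7801, 7218, 8039 and 7823 TPM in young samples, below all Fluo-4 normal samples, with a log2 difference of 0.31 (SE 0.117, limma adjusted p = 0.264).

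**Figure D4:**
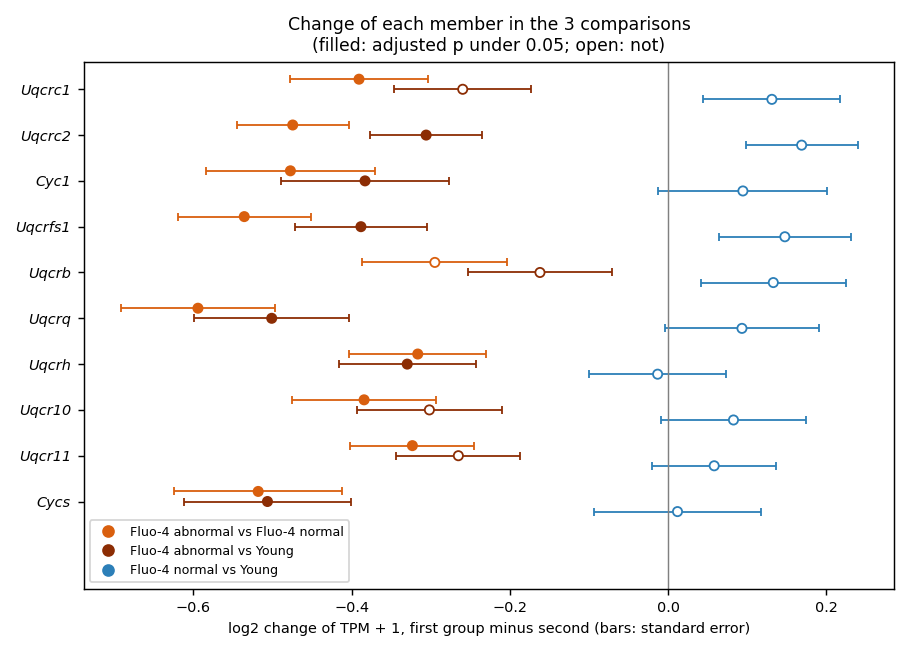
Log2 change of TPM + 1 (horizontal axis) of each member in the 3 comparisons, with bars of 1 standard error, filled where the adjusted p was under 0.05. The 10 Fluo-4 abnormal against Fluo-4 normal values lie between -0.59 and -0.29. The Fluo-4 normal against young values lie between -0.01 and 0.17, with 9 above 0.

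The members varied together across samples. Over the 45 pairs of members, Pearson's r of log2(TPM + 1) across the 12 samples ranged from 0.658 (*Uqcrc1* with *Uqcrh*) to 0.974 (*Uqcrq* with *Uqcr11*), with a median of 0.889. After each group's mean was taken off, it ranged from 0.0753 (*Uqcrc1* with *Uqcrh*) to 0.96 (*Uqcrb* with *Uqcrh*), with a median of 0.652. These samples share scaling to a fixed total, and the values are given as a description. The 5 genes outside the list most like the mean standardized pattern of the members, among 6338 genes of at least 5 TPM in a group, were *Cox7c* (r = 0.985), *Ndufb9* (r = 0.982), *Cox4i1* (r = 0.981), *Atp5g1* (r = 0.98) and *Ndufv2* (r = 0.976), over 12 samples.

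The other respiratory complexes changed in the same direction, where 1.99% of all genes passed as lower and 7.36% as higher. Of 37 nuclear-encoded complex I genes 23 passed the test as lower in Fluo-4 abnormal than in Fluo-4 normal fibers (median log2 change -0.35), as did 3 of 4 of complex II (*Sdhb*, *Sdhc* and *Sdhd*, median -0.45), 12 of 16 of complex IV (median -0.41) and 16 of 18 of complex V (median -0.44), and 0 of these lists' genes passed as higher. All 13 mitochondrially-encoded protein genes passed as lower, with a median of -0.72. The difference between these lists and complex III was not tested.

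Of 10 listed genes tied to complex III assembly or supercomplexes 9 were tested. Of these 7 had a lower and 2 a higher mean log2 value in Fluo-4 abnormal than in Fluo-4 normal fibers. Their means in Fluo-4 normal fibers ran from 4.54 TPM (*Lyrm7*) to 755 TPM (*Uqcc2*). Those of the members ran from 262 TPM (*Cycs*) to 2463 TPM (*Uqcr10*), and this scale understates changes of low genes. None of the 9 passed (0 by limma, against 1.99% of all genes as lower and 7.36% as higher). An unadjusted p under 0.05 (limma) was found in 2 of the 9, against 3693 of all 14426 genes. The median log2 change was -0.07, and the difference from the members was not tested. *Uqcc1*, needed for making cytochrome b, differed by -0.27 (limma adjusted p = 0.0629), and *Cox7a2l*, a gene linked to supercomplexes of complexes III and IV, by -0.17 (adjusted p = 0.163). *Smim4* differed by -0.23, *Bcs1l*, which inserts the Rieske protein, by -0.23, *Lyrm7*, a chaperone of that protein, by -0.07, *BC003965* (*Uqcc4*) by -0.06 and *Uqcc2* by -0.02, whereas *Uqcc3* differed by 0.13 and *Ttc19* by 0.19. Against young fibers *Cox7a2l* fell by 0.25 in Fluo-4 abnormal fibers (limma adjusted p = 0.0481), and *Smim4* rose by 0.57 in Fluo-4 normal fibers (limma adjusted p = 0.0277).

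Genes on either side of the complex were read against the same 1.99% lower and 7.36% higher of all genes. Of 14 coenzyme Q synthesis genes 3 fell between the aged groups, *Coq8a* by 0.84 (limma adjusted p = 0.00668), *Coq10a* by 0.38 (adjusted p = 0.00807) and *Coq9* by 0.35 (adjusted p = 0.0158), and the list's median was -0.18. The groups overlapped for *Coq8a* and did not for *Coq10a*. *Coq8a* supports the synthesis of ubiquinone, the carrier that feeds complex III. Of 11 tested genes that bring electrons to ubiquinone, complex II genes among them, 5 fell, *Sdhb* by 0.64 (limma adjusted p = 0.000951), *Sdhd* by 0.52, *Sdhc* by 0.38, *Etfa* by 0.38 and *Etfb* by 0.30, and *Gpd2*, the mitochondrial glycerol phosphate dehydrogenase, rose by 0.53 (limma adjusted p = 0.0185). *Sdhc*, *Etfa*, *Etfb*, *Gpd2* and *Coq9* were named after their values were seen. Of 11 tested genes listed as partners of cytochrome c 0 passed (limma), 1 had an unadjusted p under 0.05 (*Gfer*, 0.28), and the median was 0.02. Between the aged groups 3693 of all 14426 genes had an unadjusted p under 0.05 (limma).

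**Figure D5:**
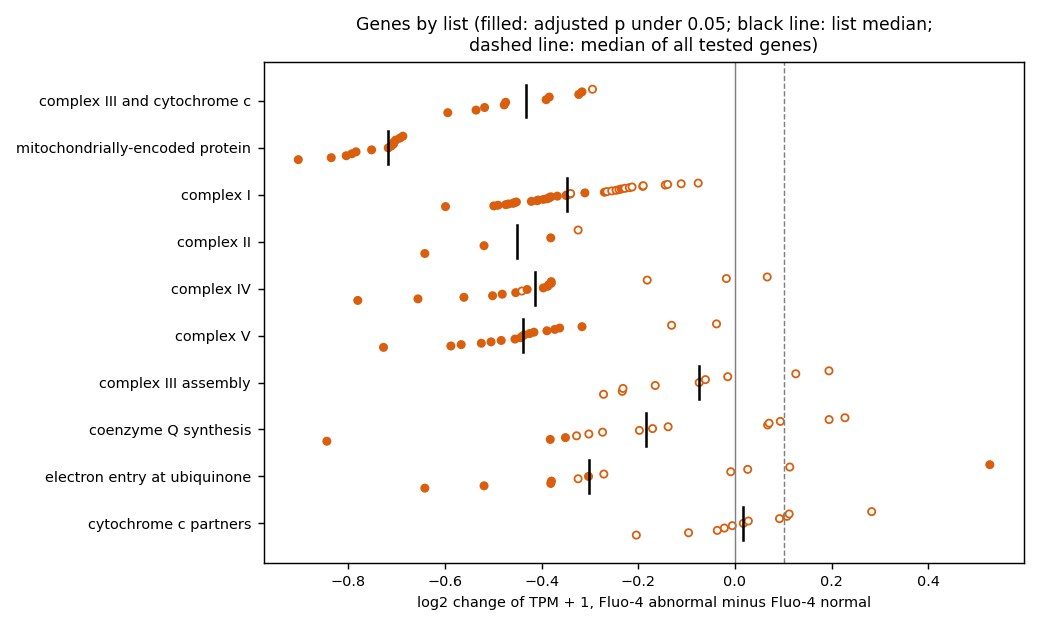
Log2 change of TPM + 1 between Fluo-4 abnormal and Fluo-4 normal fibers (horizontal axis) for each gene of 10 lists, filled where the adjusted p was under 0.05, with list medians (black lines) and the median of all tested genes (dashed line, 0.10). The subunit lists lie to the left of 0 apart from 1 complex IV gene at 0.07, and the assembly and cytochrome c partner lists straddle it.

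Promoters of 6 members were in the RefSeq table (GRCm38.p6), namely *Cycs*, *Uqcr10*, *Uqcr11*, *Uqcrc1*, *Uqcrfs1* and *Uqcrh*, as 250 bases before to 50 after the start. For *Uqcr10* the 250 bases before that start lie inside the annotated gene of GRCm39, so they are not upstream of it. Both strands were searched for letters bound by factors known to regulate respiratory genes. The NRF1 letters GCGCANGCG were in 3 of the 6 (*Cycs*, *Uqcr11* and *Uqcrc1*) and in 6.25% of 32851 promoters. The ETS letters CCGGAAG were in 2 (*Uqcr11* and *Uqcrh*) and in 8.86% of all, the CRE letters TGACGTCA in 2 (*Cycs* and *Uqcrfs1*) and in 1.79%, the ERR letters TCAAGGTCA in 0 and 0.42%, and the YY1 letters AAGATGGCG in 0 and 1.4%. Such matches describe letters and not binding. The sequence upstream of *Cycs* is shown because it holds the matches to both NRF1 and CRE (capitals, CRE first). It lies at chr6:50543558-50543799 of GRCm39 by an exact match of the table's sequence, on the minus strand, upstream of the annotated gene.
Cycs upstream: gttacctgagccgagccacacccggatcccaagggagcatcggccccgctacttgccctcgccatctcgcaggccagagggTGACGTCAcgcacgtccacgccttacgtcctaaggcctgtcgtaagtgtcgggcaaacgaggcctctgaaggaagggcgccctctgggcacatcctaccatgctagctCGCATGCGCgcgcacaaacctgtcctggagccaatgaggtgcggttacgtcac

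Several limits touch all values. The kit used does not mark strand, and 7 of the members overlap a gene on the other strand, with the longest overlaps at *Uqcr10* (2498 bp with *Gm74040*) and *Uqcrc2* (2082 bp with *Pdzd9*), so reads from those partners cannot be told apart where exons coincide. In all genes 1062 rose and 287 fell between the aged groups, but 310 rose and 545 fell with TMM-type scaling, which moved the median of all genes from 0.10 to 0.00 and the members' median to -0.66, with the same 9 members called. With totals taken without mitochondrially-encoded genes 636 rose and 321 fell. Myofiber markers, *Myh4* among them, summed to 135228 to 139015 TPM in young, 114926 to 132843 in Fluo-4 normal and 137089 to 156775 in Fluo-4 abnormal samples, so that every Fluo-4 abnormal sample was above every Fluo-4 normal sample where the members were lower, within a fixed total. Blood markers summed to 33.1 to 121 TPM in young, 119 to 482 in Fluo-4 normal and 44.4 to 236 in Fluo-4 abnormal samples, and immune markers to 1.80 to 3.02, 5.68 to 15.5 and 9.32 to 16.2. Of 5 adipocyte markers 4 (*Adipoq*, *Plin1*, *Cidec* and *Lep*) were at 0 in all samples. The part of these marker levels in the results was not tested.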

How the data were processed

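RNA-seq values of isolated EDL myofibers, 4 samples per group, were analysed. Per the labels, SMART-Seq v4 libraries were made from 10 ng of total RNA, and GRCm39 and DRAGEN are named for the processing. The unit deposited by the authors is TPM. Each sample summed to 1000000 TPM; counts were not used here, so depth is unknown. Symbols on several lines (114) were summed.

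Values were transformed to log2(TPM + 1) and fitted as 3 groups (limma 3.58.1, R 4.3.3), using a mean-variance trend and Benjamini-Hochberg adjustment over 14426 protein-coding and mitochondrially-encoded genes of at least 0.02 TPM in a group. Fold changes on this scale understate the change of low genes. In simulated data of 14426 genes for the comparison of the aged groups, changes were added only to genes averaging above about 5 TPM. Of the added changes, 91% of 2-fold and 99% of 4-fold ones were called, and 6.86% of calls fell on unchanged genes. The simulated noise was drawn separately for each gene and sample. These shares therefore do not cover lower genes, or real samples that deviate together. Differences as small as those of the members (-0.59 to -0.29 on the log2 scale between the aged groups) were not tested in those data. Ratios were compared by exact permutation. Copies were found with BLAST. The search by coding sequence, and the inclusion of short intronless genes as copies, were chosen after seeing the data.

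Same-numbered aged samples deviated together (correlations 0.343 to 0.552 over 3035 genes), so their numbers were taken as pairs in the replicate block and the paired ratio test. The main fit and the unpaired permutation of the ratios did not use the pairs. Same-numbered young and aged samples did not all deviate together (-0.134 to 0.267). Members, lists and named genes (all members, *mt-Cytb*, assembly genes, the 2 smallest p-values of 3 lists, copies of at least 1 TPM and the 5 most similar genes) were chosen with earlier results of these data known. Alternatives covered scaling, filters, pseudocount, samples, weights, *Myh4* share, copies, GC content and length, the replicate block and leaving out each sample, with a paired test of the ratios added after seeing the data.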

Additional observations from a re-analysis of the deposited data

Results flagged for a closer look

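Of 42 sets of 4 samples checked for a sample far from the others, 2 had one, where chance gives about 1 in 20. *Uqcrfs1* in Fluo-4 normal fibers was highest in sample 2, at 841 TPM, against 707 to 726 in the others. The log2 ratio of *Cycs* to *Cyc1* in Fluo-4 abnormal fibers was highest at -1.08, apart from the other 3 samples.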

How the results depend on the processing

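Of the 10 members, 9 passed between Fluo-4 abnormal and Fluo-4 normal fibers. This became 3 with only the groups compared, 3 with the *Myh4* share as a covariate, 10 with the replicate block and 0 with the replicate block and *Myh4* share, and 6 to 10 without 1 sample. *Uqcrb* also passed with totals taken without mitochondrially-encoded genes (limma adjusted p = 0.0425) and with a filter of 5 TPM (limma adjusted p = 0.0247). The call of *Uqcrh* was lost with all annotated genes tested (limma adjusted p = 0.0572) and with sample weights (limma adjusted p = 0.0779). Of all genes 287 passed as lower in the main fit and 145 with only the groups compared. With the *Myh4* share 108 did, with the block 407 and with both 8. Against young fibers 6 passed, 3 with the *Myh4* share, 9 with the block, 3 with the block and *Myh4* share, and 2 to 8 without 1 sample. *Uqcrc1*, *Uqcr10* and *Uqcr11* also passed against young fibers with the filter of 5 TPM and with sample weights. The block here also tied young to aged samples by number, although their mice differed in age. Of all genes 348 passed as lower in the main fit, 269 with the *Myh4* share, 439 with the block and 296 with both. Between Fluo-4 normal and young fibers 0 passed under every alternative run. With the GC and length trend removed, with or without the replicate block, *Uqcrb* in Fluo-4 abnormal fibers reversed to 0.065 against Fluo-4 normal and 0.063 against young fibers, and to -0.0018 between Fluo-4 normal and young fibers. In that last comparison values near 0 also reversed, for *Uqcr10* (-0.0092) and *Cycs* (-0.019) under the same setting, for *Cycs* with sample weights (-0.023), summed with copies (-0.0020) and without 1 sample (-0.056 to 0.066), and for *Uqcrh* with TMM-type factors (0.039), scaling without mitochondrially-encoded genes (0.017), the *Myh4* share (0.0019) and without 1 sample (-0.075 to 0.043). The 3 ratios were compared without the *Myh4* share in a model. They kept their direction under every alternative run for the ratios, the paired test added after seeing the data included (adjusted exact p = 0.375 to 0.625). The cause of these changes was not tested. The depth behind the TPM is unknown, so counting error could not be separated from the spread between samples.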

Other observations

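Of 12 genes for NRF1, the PGC-1 family, ERR factors and their partners, 2 passed as lower in Fluo-4 abnormal than in Fluo-4 normal fibers and 0 as higher (limma). Of all genes 1.99% passed as lower and 7.36% as higher. The list held 6 genes with a higher and 6 with a lower mean log2 value, and its median was 0.01. *Perm1*, a muscle regulator acting with PGC-1 and ERR, fell by 1.15 (limma adjusted p = 0.000992) and *Esrrg*, an estrogen-related receptor, by 0.93 (limma adjusted p = 0.00823). Both were named after their values were seen. Of the subunits of the mitochondrial processing peptidase, relatives of the core proteins of complex III, *Pmpcb* differed by -0.29 (limma adjusted p = 0.0591) and *Pmpca* by 0.17 (limma adjusted p = 0.243).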
